A study of Homo sapiens with 7 samples.

Results

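The genes described here encode the proteins that license origins of DNA replication and build the replication fork. They are 37 genes, chosen by symbol, among 20033 protein-coding genes with a position on a nuclear chromosome, and all 37 were found in the RefSeq annotation. A Myc peak was given to a gene when its summit, the base of highest enrichment, lay in the annotated span of the gene or within 1 kb of it. The rule uses no measured value, though the genes were chosen with earlier results of these data known. The genes fall into 8 groups by role.

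Binding was measured by CUT&RUN, in which an antibody directs a nuclease to its target in permeable cells and the released DNA is sequenced, in HT29, an established human colon cancer line. The series held 7 libraries: 3 made for Myc, 3 titled as IgG controls and 1 input. All groups shared a treatment of 6 h with oleic acid in serum-free medium, so no effect of the fatty acid can be measured, and the labels give the Myc antibody for the IgG libraries too. The authors' list of 47016 nuclear peaks carries 1 set of values, with a fold enrichment of Myc over the control level for each summit, and no value per library, so no spread between replicates is known for any gene.

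Replication is prepared in G1, when the origin recognition complex, CDC6 and CDT1 load the MCM helicase onto DNA as an inactive double ring. In S phase the kinase of CDC7 and DBF4, with others, triggers the joining of CDC45 and the GINS complex, and the helicase then unwinds DNA ahead of the polymerases, which the sliding clamp PCNA holds on their template. Most of these genes are transcribed in step with the cell cycle under E2F factors. Myc, which binds E-box DNA together with its partner MAX, is known as a driver of entry into S phase.

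Myc summits were found at nearly every one of these genes. In all, 36 of the 37 had at least 1 (97.3%, Wilson 95% interval 86.2 to 99.5), against 68.8% of all protein-coding genes counted the same way. The exception was GINS4. For 34 members the RefSeq promoter table lists a start, and all 34 had a summit within 1 kb of one (100%, 89.8 to 100), while 60.1% of the protein-coding genes with a listed start did. MCM4, MCM5 and GINS4 have no entry in that table, and their summits were placed by the ends of the span. The intervals treat genes as independent draws and hold no experimental error.

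Longer spans can catch more summits, so genes of like length were compared. The median span was 33696 bp for the members and 24130 bp for all genes. Among genes of 10 to 25 kb, 13 of 14 members had a summit, against 71.2% of all genes of that length. In the class of 25 to 50 kb, 9 of 9 members did, against 79.0%. Several summits were carried by 16 of the 37 members (43.2%), and 34.4% of all protein-coding genes had 2 or more. Among genes with a summit the order turned round, with 44.4% of 36 members against 49.97% of all. Per gene, members of 50 to 100 kb had a mean of 1.29 summits, against 2.12 for all genes of that length. Members over 100 kb had 2.5 against 3.62. In the shorter classes the members had the higher mean, at 2.33 (3 members) against 0.694 up to 10 kb. It was 1.29 against 1.21 from 10 to 25 kb, and 1.89 against 1.61 from 25 to 50 kb.

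The summits were also strong as a group. The median fold at the strongest summit was 10.0 over the 36 members (binomial 95% interval of the median 7.92 to 12.6), against 7.83 over all 13789 protein-coding genes with a summit. That interval treats chosen genes as independent draws and holds no experimental error, so it is no test against 7.83. A fold of at least 10, a level chosen after the values were seen, was reached by 18 of 37 members (48.6%) and by 22.1% of all protein-coding genes. These shares count genes without a summit as not reaching it. Among genes with a summit, the counts were 18 of 36 members and 4428 of 13789 protein-coding genes, a smaller contrast. Counting error on single folds is sizeable: the interval of the strongest summit lay wholly above the median of all genes at 18 members, wholly below it at 7, and spanned it at 11. These are exact Poisson 95% intervals of the pileup, the number of fragments over the summit, with the control level held fixed, and they cover counting error only.

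**Figure D1:**
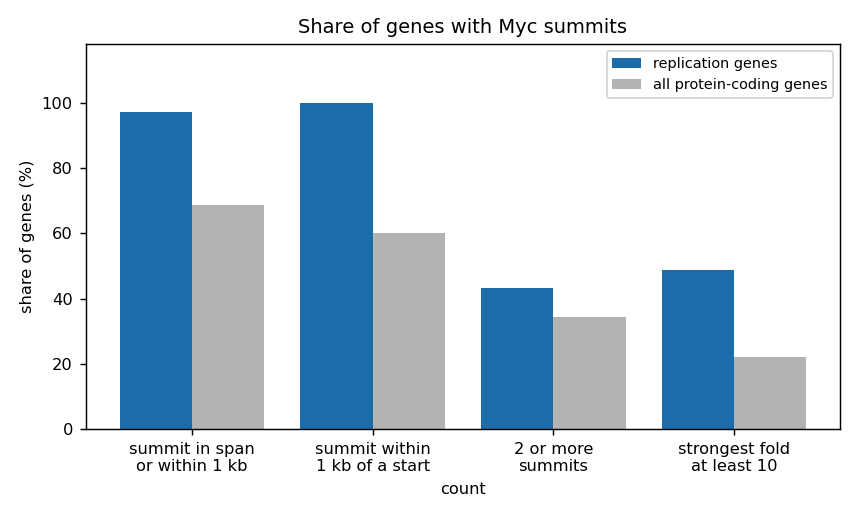
Share of the replication genes (blue) and of all protein-coding genes (grey) that met each count, in percent; the start-based pair uses only genes with a start in the RefSeq promoter table. The blue bars stand at 97.3, 100, 43.2 and 48.6%, the grey bars at 68.8, 60.1, 34.4 and 22.1%.

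By role, the highest median of the strongest fold was that of the CDC7 and DBF4 kinase genes, at 15.3 over 2 genes. The MCM2 to MCM7 helicase genes followed at 12.4 over 6 genes, the origin recognition genes at 10.3 over 6, and the clamp with its loader at 9.95 over 6. Lower medians were those of MCM8, MCM9 and MCM10 at 9.76, of CDC45 with GINS at 9.25 over 4 genes with a summit, of the polymerases and primase at 7.63 over 6, and of CDC6, CDT1 and GMNN at 5.25. Within each group of 3 or more genes with a summit, the interval of the strongest member did not overlap that of the weakest, so the spread inside a group was larger than counting error. The ranges of the groups overlapped one another, except that the kinase genes (11.4 to 19.2) lay above CDC6, CDT1 and GMNN (5.04 to 10.7), and no test between groups was made, since genes are not replicates.

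**Figure D2:**
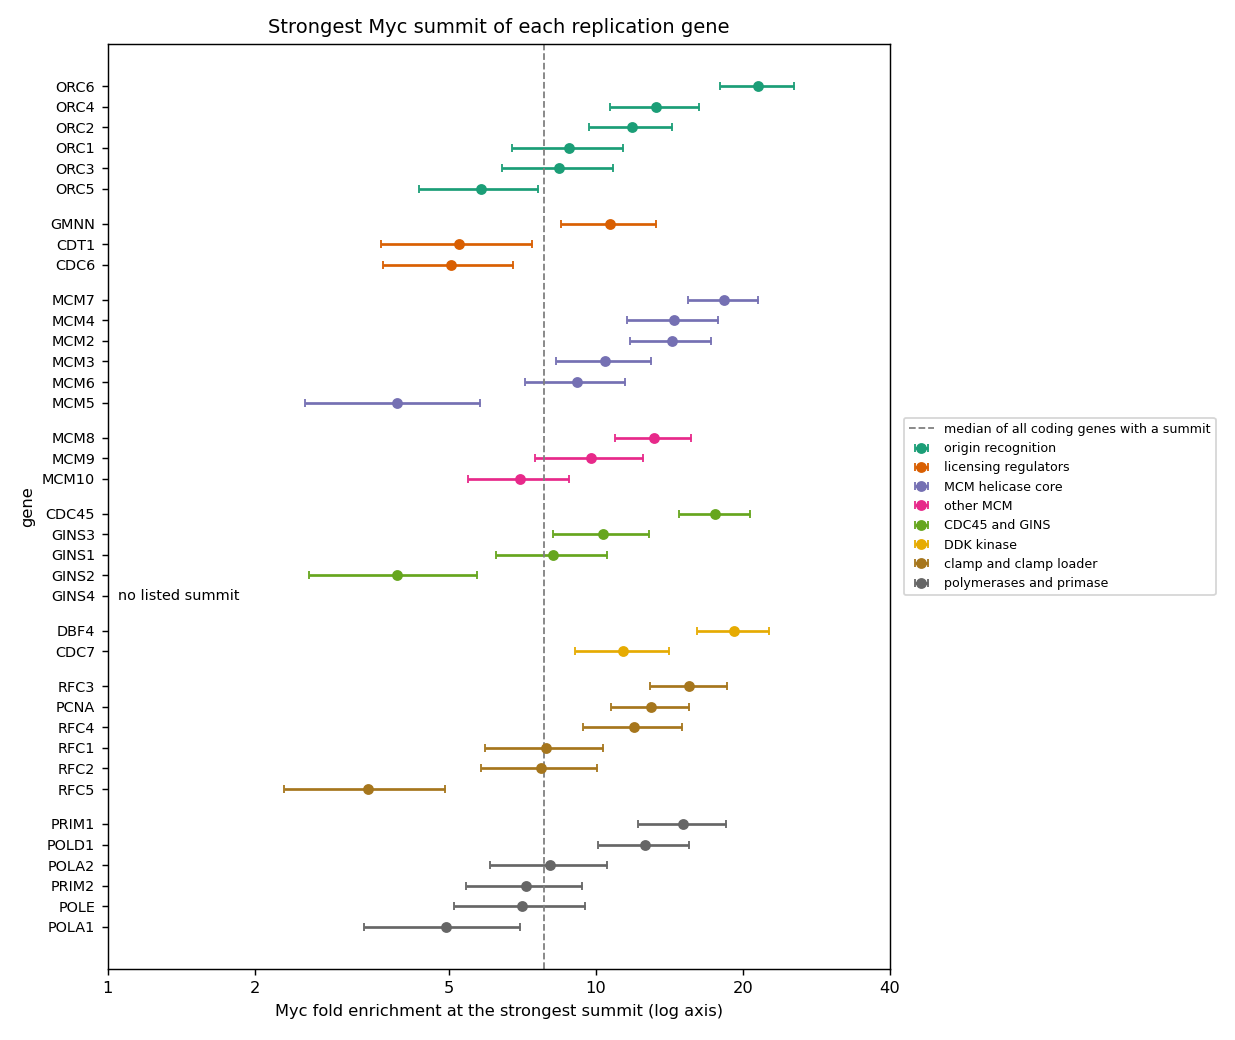
Fold enrichment of Myc at the strongest summit of each gene on a log axis, by role (colour), with exact Poisson 95% intervals of the pileup; the dashed line is the median of all protein-coding genes with a summit, 7.83. ORC6 at 21.5, DBF4 at 19.2, MCM7 at 18.3 and CDC45 at 17.6 stand farthest to the right, and RFC5, MCM5 and GINS2 lie below 4.

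The sequence of the promoters was examined next, from 250 bases before to 50 bases after each start (RefSeq, GRCh38.p14; 44 promoters of 34 members, several genes having more than 1 listed start). The E-box CACGTG, the letters that Myc with MAX prefers, was in 11.4% of the members' promoters and in 8.34% of all 22198 promoters of protein-coding genes. The 5 members with one were GMNN, MCM2, MCM7, MCM8 and ORC4. Their median fold at the start was 13.3, against 8.83 for the 29 members without one. At MCM2, MCM7, MCM8 and ORC4, but not at GMNN, another coding gene began or ended no more than 1 kb from that summit. Members with such a neighbour at the strongest summit had a median fold of 13.8, against 8.12 for the others with a summit. Whether the E-box went with a higher fold apart from the neighbour was not tested in the members. Over all protein-coding genes with a start summit, the medians were 9.03 with and 7.92 without the E-box. The variant CACGCG, searched on both strands like all motifs that are not their own reverse complement, was in 20.5% of the members' promoters and in 14.2% of all. Among promoters of genes with a Myc summit at a start, the shares were closer to those of the members, 17.3% for CACGCG and 9.51% for CACGTG.

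A larger difference was found for E2F letters. One of TTTGGCGC, TTTCCCGC, TTTCGCGC and TTTGCCGC, on either strand, was present in 18 of the 44 promoters (40.9%), against 4.10% of all promoters of protein-coding genes and 5.10% of those of genes with a Myc summit at a start. The median GC content was 63.2% for the members and 62.3% for all, but CG pairs were more frequent at the members, with 28.5 per 300 bases against 21. Among promoters of genes with a start summit whose GC and CG values lay in the central range of the members, from the 10th to the 90th percentile, 6.44% had a match. By gene, a match was found for all 3 of CDC6, CDT1 and GMNN, for all 4 of MCM2, MCM3, MCM6 and MCM7, and for GINS1, GINS2 and GINS3 but not CDC45, and for 1 of 6 origin recognition genes, ORC3. The other groups were mixed, with POLA1, POLA2 and POLE among the 6 polymerase and primase genes, PCNA and RFC3 among the 6 of the clamp and loader, MCM8 among the 3 further MCM genes, and CDC7 but not DBF4. At the strongest start summit the median fold was 9.74 for the 18 members with E2F letters and 10.8 for those without. In PCNA that summit stands at the start without the letters, and with the summit at the start that carries them, 4.88, the median of the 18 was 8.78. CCAAT, the box of the factor NF-Y, was in 56.8% of the members' promoters and 34.7% of all. TTTGAA, a core of the cell cycle homology region, was in 2.27% and 12.4%, and DBF4 was the only member with it.

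The windows below show where these letters stand at members that carry them. They run 5′ to 3′ along the gene's strand, with E-box and E2F letters in capitals and at most 30 bases after the start. The E-box windows are those of GMNN (chr6:24774917-24774966, plus strand), MCM2 (chr3:127598370-127598435, plus strand), MCM7 (chr7:100101387-100101452, minus strand), MCM8 (chr20:5950494-5950559, plus strand) and ORC4 (chr2:148020764-148020829, minus strand).
GMNN: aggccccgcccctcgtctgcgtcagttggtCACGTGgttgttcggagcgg
MCM2: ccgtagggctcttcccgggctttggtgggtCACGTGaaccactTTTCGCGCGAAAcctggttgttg
MCM7: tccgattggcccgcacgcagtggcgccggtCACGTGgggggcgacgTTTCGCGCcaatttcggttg
MCM8: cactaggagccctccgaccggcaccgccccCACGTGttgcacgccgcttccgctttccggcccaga
ORC4: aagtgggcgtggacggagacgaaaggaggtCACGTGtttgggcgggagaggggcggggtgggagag

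In MCM2 and MCM7 the E-box and E2F letters lie side by side, within 1 stretch of 66 bases. In MCM2 the capitals after the E-box hold 2 overlapping matches, 1 on each strand. The summits lay outside these windows, 103 bp away at MCM2, 185 bp at GMNN, 198 bp at ORC4, 227 bp at MCM8 and 304 bp at MCM7. A summit marks the highest point of a broad pileup, with a median peak width of 1572 bp at the members' starts, and does not place the protein on a motif.

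Windows with E2F letters and no E-box are shown for GINS1 (chr20:25407648-25407702, plus strand), MCM3 (chr6:52284713-52284776, minus strand), MCM6 (chr2:135876492-135876625, minus strand) and PCNA (chr20:5126644-5126711, minus strand), as examples from 3 roles.
GINS1: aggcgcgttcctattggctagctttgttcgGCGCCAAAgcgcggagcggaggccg
MCM3: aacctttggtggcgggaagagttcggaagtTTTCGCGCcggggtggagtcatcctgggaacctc
MCM6: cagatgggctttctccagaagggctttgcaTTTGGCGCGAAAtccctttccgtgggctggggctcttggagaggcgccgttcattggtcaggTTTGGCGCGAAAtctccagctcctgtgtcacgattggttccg
PCNA: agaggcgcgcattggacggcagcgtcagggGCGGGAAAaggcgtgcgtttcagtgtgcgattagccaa

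MCM6 has the same run of capitals at 2 places, each with overlapping matches on both strands, 4 matches in all. A match is a description of letters and no measure of binding by E2F, which was not measured here.

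**Figure D3:**
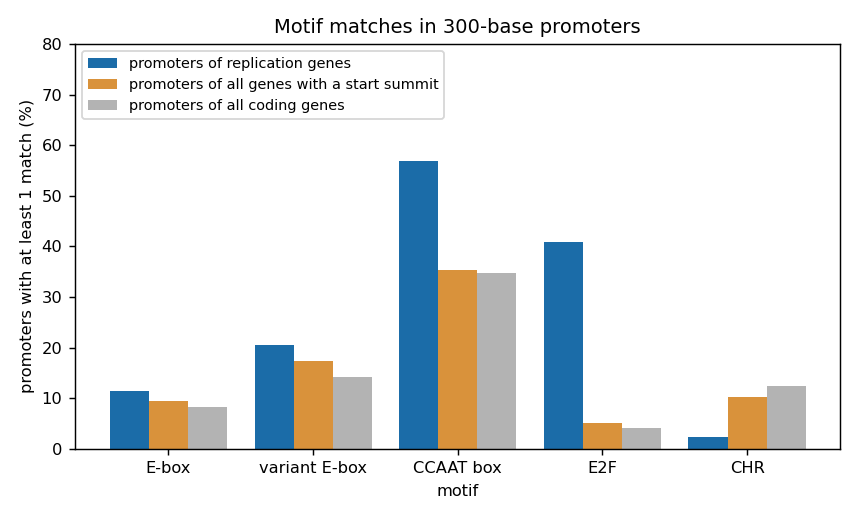
Share of 300-base promoters with at least 1 match to each motif, in percent, for the replication genes (blue), all genes with a Myc summit at a start (orange) and all protein-coding genes (grey). The E2F bars stand at 40.9, 5.10 and 4.10%, while the E-box bars stand at 11.4, 9.51 and 8.34%.

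The origin recognition complex marks the sites where helicases are loaded, and all 6 of its genes had a summit near a start. ORC6 had the highest value of all members, a fold of 21.5 (18.0 to 25.5) at chromosome 16, 46689410. There 130 fragments stood over a control of 5.09, and 97.9% of coding genes with a summit had a lower strongest fold. The summit lay 249 bp upstream of the start and 232 bp from an end of VPS35. ORC4 had 13.3 (10.7 to 16.3) at chromosome 2, 148020566, 171 bp after a start, and ORC2 had 11.9 (9.71 to 14.3) at chromosome 2, 200963563, 97 bp after its start. ORC1, the subunit whose level varies most with the cell cycle, had 8.83 (6.72 to 11.4), ORC3 8.41 (6.41 to 10.9) and ORC5 5.81 (4.34 to 7.62). The ORC6 interval lay above those of the other 5, and the ORC1, ORC3 and ORC5 intervals overlapped one another. The ORC1, ORC3 and ORC4 summits also lay near an end of PRPF38A, RARS2 and MBD5.

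CDC6 and CDT1, the loading factors, had summits below the median of all genes, and GMNN one above it. CDC6, the ATPase that joins the origin complex, had a fold of 5.04 (3.67 to 6.77) at chromosome 17, 40288306, from a pileup of 42 over 7.53, 427 bp after its start. CDT1, which brings the helicase, had its strongest summit inside the gene, at chromosome 16, 88804874, 1085 bp after the start, with 5.25 (3.62 to 7.39). The summit at the CDT1 start had 4.11 (2.74 to 5.95), and both intervals overlapped. GMNN, which encodes geminin, the inhibitor of CDT1, had 10.7 (8.48 to 13.3) at chromosome 6, 24775151, from a pileup of 79 over 6.50. Its interval lay above those of CDC6 and of both CDT1 summits, so the summit at the inhibitor was the stronger one. CDT1 was the only member with a listed start whose strongest summit was not within 1 kb of it.

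The 6 genes of the core helicase, whose products form 1 ring in equal parts, differed in fold. MCM7 had 18.3 (15.4 to 21.5) at chromosome 7, 100101756, from a pileup of 143 over 6.88. MCM4 had 14.4 (11.6 to 17.8) at chromosome 8, 47960026, and MCM2 14.3 (11.7 to 17.3) at chromosome 3, 127598538. MCM3 had 10.4 (8.28 to 13.0), MCM6 9.14 (7.17 to 11.5) and MCM5 3.91 (2.54 to 5.78), the last from 23 fragments over a control of 5.14. The MCM5 interval lay below those of the other 5 genes, while those of MCM2, MCM3 and MCM4 overlapped. The 3 strongest lay at ends shared with another coding gene: AP4M1 at MCM7, PRKDC at MCM4 and TPRA1 at MCM2. The list does not divide the fragments of such a summit between neighbours. The MCM4 summit lay outside the MCM4 span, 915 bp below its lower end, and was thus nearer to the end of PRKDC.

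MCM7 carried a further pair of weak summits. One inside the gene at chromosome 7, 100094299, had a fold of 3.04 (1.87 to 4.71) and lay 225 bp from MIR106B, 452 bp from MIR93 and 656 bp from MIR25, the microRNA genes that MCM7 hosts. The other, at 100091820, had 3.90 (2.69 to 5.49) and lay 908 bp beyond the lower end of MCM7, near an end of COPS6. Both were far below the 18.3 at the start.

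Of the MCM genes outside the core ring, MCM8, which encodes a helicase with a role in recombination, had 13.1 (10.9 to 15.7) at chromosome 20, 5950786, near an end of TRMT6. MCM9, the gene of its partner, had 9.76 (7.50 to 12.5) at chromosome 6, 118934711, 448 bp after the start. MCM10, which encodes a factor needed to activate the helicase, had 6.98 (5.46 to 8.80) at chromosome 10, 13161714, over the highest control level of the members' start summits, 9.17. The MCM8 and MCM10 intervals did not overlap, and that of MCM9 overlapped both. A second summit inside MCM9, with 7.88 (5.83 to 10.4), lay at an end of ASF1A, a histone chaperone gene nested in its span.

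Both genes of the kinase that starts origin firing had a summit close to the start. DBF4, the activating subunit, had 19.2 (16.1 to 22.6) at chromosome 7, 87876652, from a pileup of 137 over 6.20, in the widest peak of the members' start summits, 4229 bp. CDC7, the catalytic subunit, had 11.4 (9.06 to 14.1) at chromosome 1, 91500972, from a pileup of 81 over 6.21. Their intervals did not overlap. The DBF4 summit also lay near an end of SLC25A40.

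CDC45 and GINS complete the active helicase, and here the values ran from among the strongest to none. CDC45 had 17.6 (14.8 to 20.7) at chromosome 22, 19479587, from a pileup of 143 over 7.20, near an end of UFD1. GINS3 had 10.3 (8.18 to 12.9) at chromosome 16, 58392639, and GINS1 8.17 (6.24 to 10.5) at chromosome 20, 25407746. GINS2 had 3.92 (2.59 to 5.71) at chromosome 16, 85689248, from a pileup of 25 over 5.64. The GINS2 interval lay below those of GINS1 and GINS3, which overlapped each other.

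GINS4 (chromosome 8, 41529261 to 41545030) had no listed summit within 1 kb. The nearest, 33327 bp away at 41578357, had a fold of 3.45 (2.17 to 5.23), and the nearest on the lower side, 38459 bp away, had 3.28 (2.04 to 5.03). Of the 15 other coding genes within 1 Mb, 11 had a summit. The list holds only peaks past the authors' threshold: the lowest listed fold at the lowest control level, 5.09, was 2.46, from a pileup of 14 fragments. A weaker enrichment at GINS4 was therefore not detectable in this list.

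The sliding clamp PCNA had summits near both of its listed starts. The stronger, 13.0 (10.7 to 15.5) at chromosome 20, 5119878, lay 80 bp after the start inside the span and within the antisense gene PCNA-AS1. The other, 169 bp after the start at the higher end of the span, had 4.88 (3.61 to 6.45) at 5126453 and lay near an end of CDS2. These intervals did not overlap, and the control levels were alike, 8.19 and 8.84. The E2F letters printed for PCNA stand before the start with the weaker summit.

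Of the 5 loader genes, RFC3 had 15.5 (12.9 to 18.5) at chromosome 13, 33818311, 162 bp after the start, from a pileup of 121 over 6.85. RFC4 had 12.0 (9.41 to 15.0) at chromosome 3, 186806735. RFC1, the large subunit, had 7.92 (5.94 to 10.4) and RFC2 7.72 (5.82 to 10.0). RFC5 had the lowest value of all members with a summit, 3.41 (2.29 to 4.91) at chromosome 12, 118016939, from a pileup of 27 over 7.20. Thus genes for subunits of 1 complex spanned values from 15.5 to 3.41. The RFC3 and RFC4 intervals overlapped, and the RFC5 interval lay below the other 4.

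The polymerase and primase genes all had a summit within 1 kb of a start, and 3 of the 6 stood under the median of all genes with a summit. PRIM1, the catalytic primase subunit gene, had 15.1 (12.2 to 18.5) at chromosome 12, 56752244, from a pileup of 91 over 5.09. POLD1, which encodes the catalytic subunit of the lagging-strand polymerase, had 12.6 (10.1 to 15.6) at chromosome 19, 50383939, near an end of NR1H2. POLA2 had 8.07 (6.06 to 10.5) at chromosome 11, 65262082. The other 3 were lower: PRIM2, the second primase subunit gene, had 7.20 (5.43 to 9.38), POLE, the leading-strand polymerase gene, 7.06 (5.13 to 9.48), and POLA1, on chromosome X, 4.92 (3.35 to 7.0). The PRIM1 interval lay above those of PRIM2, POLE and POLA1. The POLE summit also lay near an end of PXMP2.

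PRIM2 needs care. Its annotated span of 425311 bp begins far before its listed starts, its summit lay 733 bp upstream of a start, and a second one, with 6.67 (4.91 to 8.88), stood near the lower end of the span at an end of RAB23. PRIM2 has related copies elsewhere in the genome, and how reads that fit several places were treated is not given in the sources used here.

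Most of the signal stood close to the starts. Of the 61 summits given to the members, 35 lay within 1 kb of a listed start, 2 near an end of MCM4 or MCM5, 22 inside a gene and away from its starts, and 2 beyond the far end. The strongest start summit of each of the 34 members lay at a median distance of 165.5 bp, with 33 within 500 bp and PRIM2 the exception. It lay after the start at 23 members (67.6%) and before it at 11. Over 9526 protein-coding genes with a start summit the median distance was 205 bp, and 55.8% lay after the start. Peak width was the same, 1572 bp at the members and 1571 bp over all genes.

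**Figure D4:**
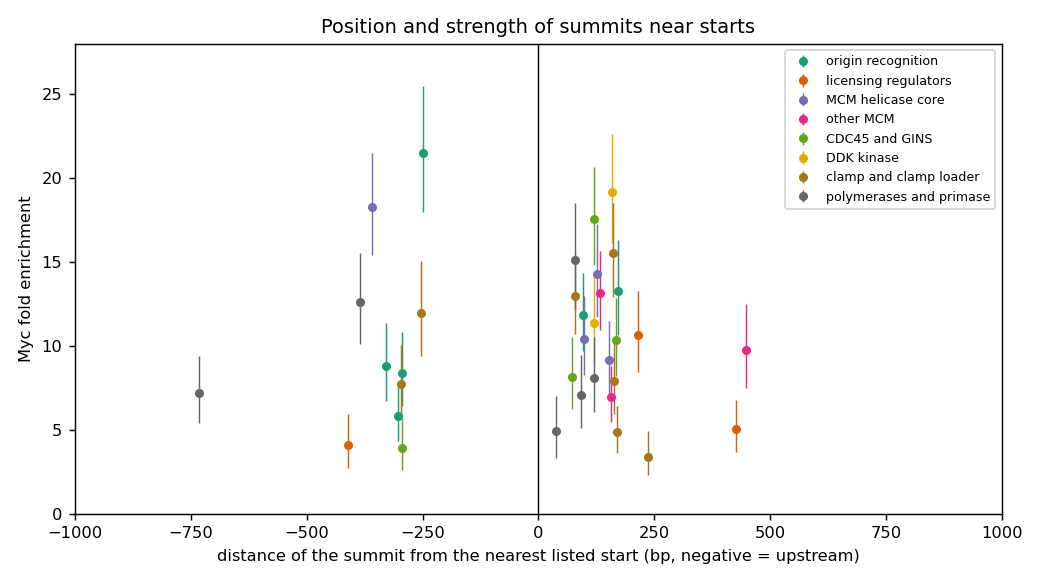
Fold enrichment of the 35 summits near a start against their distance from the nearest listed start in bp, negative before and positive after it, by role, with Poisson 95% intervals. Most points lie within 500 bp of the start, and the strongest, ORC6, lies 249 bp before it.

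The summits inside the genes were weak. Their median fold was 3.79, with a range from 2.44 in GINS1 to 7.88 in MCM9, against 4.11 for all 47016 peaks, and their median width was 556.5 bp. They were found in 15 members, and 4 of the 22 reached a fold of 5: those in MCM9 and PRIM2 at the ends of ASF1A and RAB23, that of CDT1, and 1 of the 3 in POLA2, with 5.04. RFC4 had one of 4.51 (3.19 to 6.19) at an end of EIF4A2. POLA1, with a span of 303069 bp, had none.

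**Figure D5:**
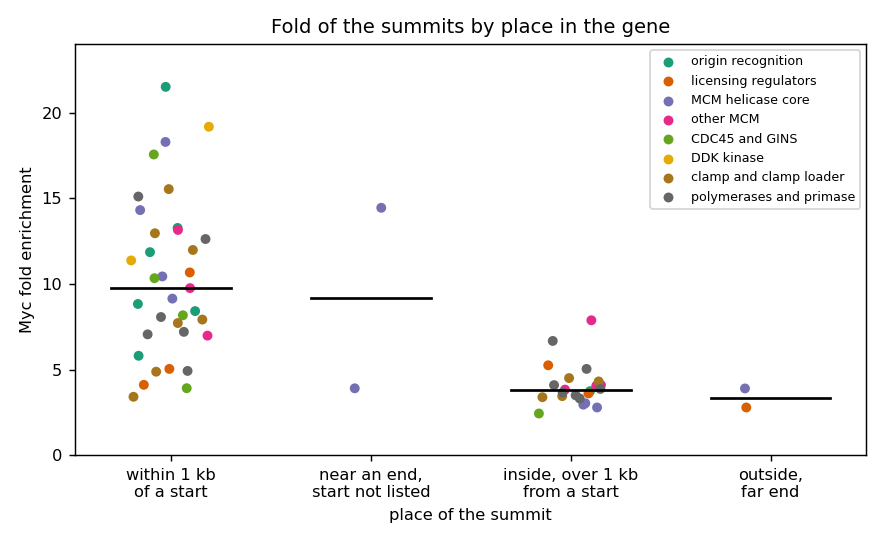
Fold enrichment of each of the 61 summits by its place in the gene, coloured by role, with the median of each place as a line. Inside summits, including 1 of MCM5 over 1 kb from either end, lie between 2.44 and 7.88, below the strongest start summits at 21.5 and 19.2.

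An end shared with a neighbour went with a higher fold. For 12 of the 36 members (33.3%), another coding gene ended or began no more than 1 kb from the strongest summit, against 23.6% of all coding genes with a summit. Its median fold was 13.8 at the 12 and 8.12 at the other 24. Over all coding genes with a summit these medians were 9.62 and 7.29, so the direction was not particular to the replication genes. The part of the neighbour in these values was not tested.

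The rest of the replication machinery was described with 38 further genes, for other polymerase subunits, single-strand binding, ligation and nucleases, origin firing, fork protection and chromatin assembly. All 38 had a summit, against 68.8% of all protein-coding genes. All 29 with a listed start had one within 1 kb of it, against 60.1% of the protein-coding genes with a listed start. The median strongest fold of the 38 was 7.80, close to the 7.83 of all genes. The highest were POLE3 at 26.4 (22.5 to 30.8), POLD2 at 23.3 (19.8 to 27.3) and DSCC1 at 22.0 (19.4 to 24.8). POLE3 and POLD2 encode accessory polymerase subunits, and their intervals lay above those of POLE and POLD1, the catalytic subunit genes of the same enzymes. This did not hold for the other accessory subunit genes. POLE2 at 5.09 (3.49 to 7.19) had a lower fold than POLE, with overlapping intervals. POLD3 at 7.51 (5.83 to 9.55) and POLD4 at 11.3 (9.20 to 13.7) had lower folds than POLD1. The POLD3 interval lay below that of POLD1, and the POLD4 interval overlapped it. POLE4, at 10.4 (8.61 to 12.5), was higher than POLE, with overlapping intervals. The POLE3 summit also lay 216 bp from an end of C9orf43. DSCC1 encodes a part of the loader that acts in sister chromatid cohesion. Its strongest summit lay outside the span, 928 bp below the lower end and 207 bp from an end of TAF2, over a control level of 11.3. A separate DSCC1 summit, 136 bp from the higher end, had 14.5 (12.3 to 16.9). The lowest, named after its value was seen, was RNASEH2A at 3.28 (2.04 to 5.03). E2F letters were in 18.4% of the 38 promoters of these genes, against 40.9% of the members' promoters and 4.10% of all promoters of protein-coding genes.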

How the data were processed

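The deposited file is 1 MACS2 list of peaks for the whole series. The submitters' processing notes name MACS2 2.1.2 and BWA 0.7.15, with Picard 2.19.0, SAMtools 1.5 and build hg38. Settings, the control library and how replicates were joined are not stated in those notes. For each peak the authors give the fold (a ratio of Myc pileup to control level at the summit), the −log10 of the p-value and q-value, and a score, which is 10 times the −log10 q cut to a whole number. In the ratio that gives the fold, 1 is added to both the pileup and the control level. At ORC6, 130 fragments over a control of 5.09 thus give a fold of 21.5. The lowest deposited −log10 q was 1.30. Depth per library is unknown.

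Pileups and control levels were solved from the deposited fold and −log10 p-value, with a whole number found for 47016 of 47016 peaks within 0.001 of the listed value, and the procedure was tested on simulated data (100% of 2000 peaks recovered). At the median summit 29 fragments stood over a control level of 5.92. Positions are counted from 1. Spans came from RefSeq (GRCh38.p14, the chromosome sequences of hg38) and starts from its promoter table. Python 3.11.15, NumPy 2.4.6, SciPy 1.17.1 and pandas 2.3.3 were used. No test was made: the list has no replicates, and genes stand beside the same count over all coding genes. Members, lists and motifs were chosen with earlier results of these data known. All members are named, with full values for the 3 strongest of each role. The alternatives were other windows, stricter peaks, overlap in place of summits and 1 summit per interval.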

Additional observations from a re-analysis of the deposited data

How the results depend on the processing

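The count of members with a summit was 30 to 36 of 37 with windows of 0 bp and 5 kb, with stricter peaks (a −log10 q of at least 5, or a fold of at least 5), with overlap of the peak in place of the summit and with 1 summit per interval. That for summits near a start was 30 to 34 of 34 with start windows of 500 bp and 5 kb and with the same changes of peaks. The share of all protein-coding genes with a listed start ran from 49.4% with a fold of at least 5 to 67.1% with the 5 kb window. The median strongest fold of the members stayed between 8.99 and 10.6. That of all coding genes with a summit ran from 6.89 with a window of 0 bp to 9.03 with peaks of a fold of at least 5. The members' median was the higher at every setting, but the gap narrowed with that fold limit. It was then 10.6 against 9.03, in place of 10.0 against 7.83. The number of summits fell from 61 to 35 with peaks of a fold of at least 5, since most inside summits are weaker than that. No interval held more than 1 summit, so that setting changed nothing. With a window of 0 bp, 57.5% of all coding genes had a summit, and with a fold of at least 5, 53.9%. No paired analysis was possible because the list holds no value per library. For the same reason no replicate could be left out, and agreement between the 3 Myc libraries is unknown. Enrichment under the authors' threshold is not listed, and pileups of 20 to 30 fragments, as at MCM5 and RFC5, leave wide intervals.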

Other observations

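Among the 38 further replication genes, 3 were singled out after their values were seen. MTBP, which encodes a partner of the firing factor TICRR, had 13 on chromosome 8. The strongest, with a fold of 12.3 (10.2 to 14.7), lay at an end shared with MRPL13, and the other 12 ran from 2.03 to 4.09 over control levels from 8.53 to 11.1, which are above the median of 5.92 over all peaks. TOP1, the topoisomerase that relieves torsion ahead of the fork, had 8 summits, 11.7 (9.31 to 14.5) near its start and 7 inside from 2.58 to 4.39, over control levels from 6.21 to 7.20. No member of the core list had more than 4.

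In WDHD1, which encodes a fork protein that links the helicase to the first polymerase, the strongest summit did not lie at the start. It had 16.1 (13.6 to 18.9), 2051 bp after the start in a peak 449 bp wide, and the start summit had 12.6 (10.1 to 15.6), in a peak of 1487 bp. The intervals overlapped.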
